A study of Mus musculus with 12 samples.

Results

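Rrm1, Rrm2, Tyms, Tk1, Dut, Pcna, Fen1, Lig1 and Uhrf1 were followed as the genes of deoxynucleotide supply and of the replication fork, in the esophagus and liver of mice with an inducible Nanog transgene. They were chosen by name, as the probes whose RefSeq accession belongs to these symbols, which gave 9 genes and 12 probes of the 16535 named genes and 41174 probes on the array. RNA of both organs came from 6 male mice, at 1 array per organ and mouse. The 3 TG mice were Col1a1tetO-Nanog/+;Rosa26rtTA/+, with a Nanog transgene at the Col1a1 locus that the rtTA activator, expressed from Rosa26, switches on under doxycycline. The 3 CTR mice were Col1a1+/+;Rosa26rtTA/+ and carried the activator without the transgene. All 6 were about 8 months old, had a mixed 129Sv/C57BL6 background and drank 0.2 mg/ml doxycycline with 7.5% sucrose for 48 h, so doxycycline and rtTA were common to both genotypes. The label of neither genotype limits the transgene to a cell type.

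A cell that copies its genome needs deoxynucleotides and a set of proteins that travel with the replication fork. Ribonucleotide reductase, made of the large subunit Rrm1 and the small subunit Rrm2, turns ribonucleotides into deoxynucleotides, and Rrm2 is the subunit that cells restrict to S phase. Tyms makes thymidylate anew, Tk1 recovers it from thymidine, and Dut destroys dUTP so that uracil stays out of DNA. At the fork, Pcna is the ring that holds polymerases on the template, Fen1 trims the flaps of Okazaki fragments, Lig1 seals the remaining nicks, and Uhrf1 reads half-methylated daughter DNA for the methyltransferase Dnmt1. In the esophagus such genes are known from the dividing basal layer of the epithelium, whereas most hepatocytes of an adult liver are out of cycle.

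Promoters of the members are shown because the genes varied together across the esophagi and differed in direction between organs, as described further on. RefSeq (GRCm38.p6) gave 13 promoters for the 9 genes, each from 250 bases before to 50 bases after an annotated start. The 5 below belong to the reductase subunits, to Tk1, the member with the largest deficit in esophagus relative to liver, and to Lig1 and Uhrf1, whose second starts were the only ones with an E2F word. They read in the gene's own direction, with E2F words and CCAAT words in capitals on either strand.
Rrm1, chr7:102441445-102441744, plus strand: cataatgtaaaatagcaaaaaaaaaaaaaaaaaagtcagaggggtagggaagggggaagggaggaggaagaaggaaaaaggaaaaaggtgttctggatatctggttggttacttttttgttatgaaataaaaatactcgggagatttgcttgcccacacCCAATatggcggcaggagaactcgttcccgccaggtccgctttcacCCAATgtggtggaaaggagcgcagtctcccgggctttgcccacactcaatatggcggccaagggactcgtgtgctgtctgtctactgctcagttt
Rrm2, chr12:24708004-24708303, plus strand: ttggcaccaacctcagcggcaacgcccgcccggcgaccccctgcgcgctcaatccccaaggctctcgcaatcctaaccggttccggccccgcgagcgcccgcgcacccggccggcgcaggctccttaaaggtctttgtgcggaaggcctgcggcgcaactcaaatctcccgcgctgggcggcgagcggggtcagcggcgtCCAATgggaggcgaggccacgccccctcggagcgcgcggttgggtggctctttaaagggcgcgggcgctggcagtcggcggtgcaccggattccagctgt
Tk1, chr11:117825965-117826264, minus strand: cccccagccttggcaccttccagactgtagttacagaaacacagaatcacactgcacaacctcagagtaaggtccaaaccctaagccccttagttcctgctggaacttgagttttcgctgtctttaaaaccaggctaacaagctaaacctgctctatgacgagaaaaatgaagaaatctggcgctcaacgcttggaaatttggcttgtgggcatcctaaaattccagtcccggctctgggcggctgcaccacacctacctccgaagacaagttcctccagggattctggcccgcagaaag
Lig1, chr7:13278576-13278875, plus strand: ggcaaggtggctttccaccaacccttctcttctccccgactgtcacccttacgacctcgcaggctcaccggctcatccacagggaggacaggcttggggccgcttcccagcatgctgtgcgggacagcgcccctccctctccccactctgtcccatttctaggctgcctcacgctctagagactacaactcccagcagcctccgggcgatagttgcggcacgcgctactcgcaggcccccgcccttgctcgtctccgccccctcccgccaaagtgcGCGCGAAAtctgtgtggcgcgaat
Uhrf1, chr17:56304063-56304362, plus strand: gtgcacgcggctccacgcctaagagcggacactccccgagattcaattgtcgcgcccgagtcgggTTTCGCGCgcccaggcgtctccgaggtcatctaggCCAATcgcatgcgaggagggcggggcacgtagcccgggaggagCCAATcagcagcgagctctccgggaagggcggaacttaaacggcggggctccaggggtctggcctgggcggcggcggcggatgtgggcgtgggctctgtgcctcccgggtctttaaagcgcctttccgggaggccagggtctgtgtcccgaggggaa

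The E2F words searched were TTTGGCGC, TTTCGCGC, TTTGCCGC and TTTCCCGC, on both strands, and they stood in 2 of the 13 promoters, against 2.27% of all 32851 mouse promoters of the same length and 4.29% of the 9690 with a GC content of 60% or more, which both member promoters with the word also had. In Uhrf1 the word TTTCGCGC began at -185 relative to the second start, and in Lig1 it lay on the opposite strand, 27 bases past the second start. CCAAT, also on both strands, stood in 5 of the 13 promoters, of Rrm1, Rrm2, Pcna and both starts of Uhrf1, against 37.4% of all promoters. In the promoters of the members no E2F word overlapped a CCAAT word. The Tk1 promoter held neither. These are matches of letters, and binding was not measured.

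Each value below is a background-subtracted spot signal on a log2 scale, counted from the upper quartile (percentile 75) of its array and called the normalized log2 signal, and a value of 0 lies at that quartile. Levels can be compared between samples for a gene, not between genes, since each probe has its own brightness. Tests were limma fits across all genes tested, adjusted by Benjamini-Hochberg, and a gene passed at an adjusted p under 0.05. The 12 arrays detected 56.4% to 81.8% of probes well above background, and the 3 arrays per group limit the precision. Keratinocyte markers matched the labelled organ, with the summed linear signal of 8 basal markers at 427 to 559 in the 6 esophagi and 1.16 to 1.99 in the 6 livers, and that of 6 hepatocyte markers at 0.190 to 0.718 in esophagi and 1589 to 1997 in livers. Nanog itself stayed below the detection limit of its probe on all 12 arrays, so the transgene's induction could not be read from them. Some arrays stood apart. Esophagus CTR2 carried Rag1, a gene of developing lymphocytes, at -0.11, while it was not well above background on the other 5 esophagi. The clock gene Per2 was low in livers TG2 (-1.77) and CTR1 (-1.64), against 0.63 to 1.23 in the other 4 livers. In the esophagus Per2 was low in TG1 (-3.01) and TG2 (-2.55), against -0.80 to 0.17 in the other 4, so that the organs of mice TG1 and CTR1 differed in which was low. Results are therefore also given without esophagus CTR2 and without livers TG2 and CTR1. Esophagi TG1 and TG2 were each left out in turn, and no alternative left out both.

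In the esophagus, most members were lower in TG than in CTR mice and none passed. Of the 9 members, 8 had a lower mean in TG, against 49.2% of all 23208 genes tested, and the median difference was -0.32, against 0.01 over all genes. The members were chosen with earlier results of these data known and share the same arrays, so this count is a description. The number called was 0 of 9, with a background of 0% of all genes called, and 928 genes (4%) had an unadjusted p under 0.05. Adjusted p was 1.00 for each of the 9 members. Without esophagus CTR2 the median of the members was -0.16. Without esophagi TG1 and CTR1 it was -0.61, and without CTR1 alone it was -0.49.

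Markers of other tissues were also lower in TG esophagi, with none called. The summed linear signal of 7 heart muscle markers was 222 to 242 in TG and 228 to 361 in CTR esophagi, with a median log2 difference of -2.23 over the list and 5 of 7 lower. That of 6 airway markers was 0.909 to 102 in TG and 27.0 to 239 in CTR esophagi, with 4 of the 5 tested lower and a median of -4.36. Of 7 fat markers all 7 were lower, with a median of -1.69 and a summed signal of 49.97 to 188 in TG and 112 to 207 in CTR esophagi. Of 4 red blood cell markers the 3 tested were lower, with a median of -0.97 and a summed signal of 41.6 to 61.6 in TG and 83.7 to 140 in CTR esophagi. Their part in the lower members was not tested.

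**Figure D1:**
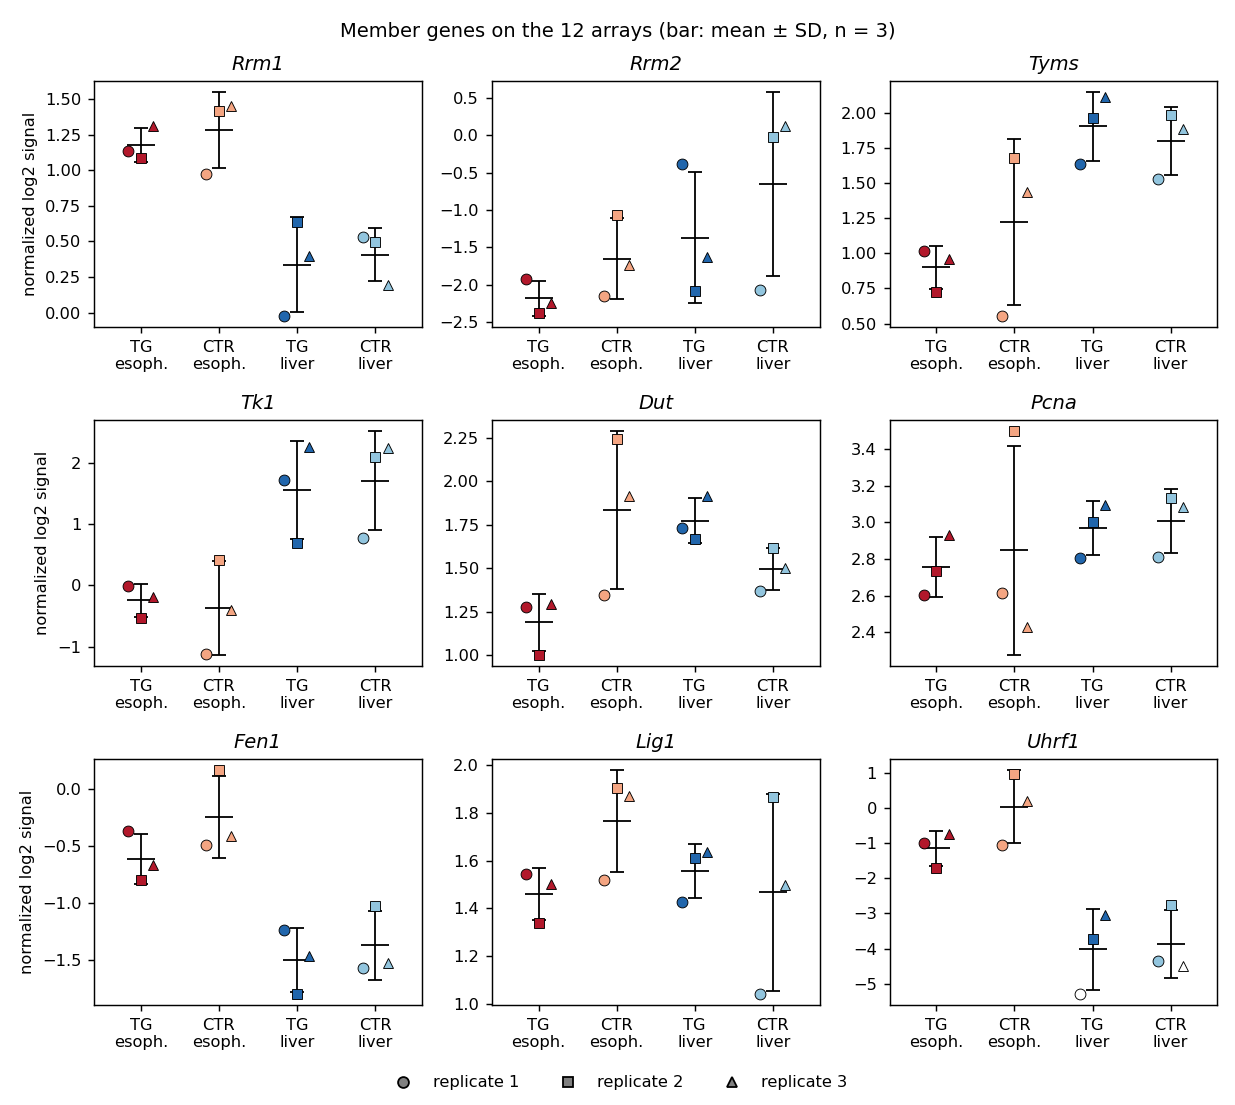
Normalized log2 signal (vertical axis, own scale per gene) of the 9 genes in TG and CTR esophagus and TG and CTR liver, with a symbol for each replicate, open where the probe was not well above background, and bars for the mean ± SD (n = 3). Esophagus CTR2 (square) is the highest esophagus in 8 of the 9 panels, and Uhrf1 lies between -1.70 and 0.97 in esophagi and between -5.29 and -2.76 in livers.

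The subunits of ribonucleotide reductase did not pass between TG and CTR esophagi. Rrm1 (NM_009103, chromosome 7) read 1.14, 1.09 and 1.31 in TG esophagi, against 0.98, 1.42 and 1.45 in CTR esophagi. The TG values lay inside the CTR range, with a difference of -0.10 (SE 0.21). Rrm2 (NM_009104, chromosome 12), the subunit restricted to S phase, read -1.92, -2.37 and -2.25 in TG esophagi, against -2.15, -1.07 and -1.73 in CTR esophagi. Here 2 of the 3 TG arrays were below every control, and the difference was -0.53 (SE 0.60), within the spread of the controls (SD 0.54).

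The thymidylate genes overlapped between genotypes. Tyms (NM_021288, chromosome 5) read 1.02, 0.73 and 0.96 in TG esophagi, against 0.55, 1.68 and 1.43 in CTR esophagi. CTR1 was the lowest of the 6 and CTR2 the highest, and the difference was -0.32 (SE 0.28), with -0.27 (SE 0.27) from its second probe. Tk1 (NM_009387, chromosome 11) read -0.01, -0.53 and -0.19 in TG esophagi, against -1.12, 0.41 and -0.40 in CTR esophagi. It was the only member with a higher mean in TG, at 0.13 (SE 0.52), and its controls spanned all 3 TG values.

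Dut (NM_023595, chromosome 2), which guards DNA against uracil, had the smallest p of the members in the esophagus. It read 1.28, 1.00 and 1.29 in TG esophagi, against 1.35, 2.24 and 1.91 in CTR esophagi. All 3 TG values lay below all 3 CTR values, as for 5.75% of all genes tested, but TG3 and CTR1 were only narrowly apart. The difference was -0.64 (SE 0.22, 95% interval -1.13 to -0.16), with an unadjusted p = 0.0143 and an adjusted p = 1.00 in limma. Its second probe read -0.32, -0.24 and 0.19 in TG, against -0.05, 0.77 and 0.22 in CTR esophagi, where the groups overlapped and the difference was -0.44 (SE 0.22). Without esophagus CTR2 the difference of the first probe was -0.44.

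The genes at the fork were likewise lower on average without passing. Pcna (NM_011045, chromosome 2), the sliding clamp, read 2.60, 2.73 and 2.93 in TG esophagi, against 2.61, 3.50 and 2.43 in CTR esophagi. Its control values ranged more widely than its TG values, and the difference was -0.09 (SE 0.26). The Pcna probe was printed 10 times per array and its spots had an SD of 0.05 to 0.14 within an array, so the high value of CTR2 did not rest on a single spot. Fen1 (NM_007999, chromosome 19), the flap nuclease, read -0.37, -0.79 and -0.67 in TG esophagi, against -0.49, 0.16 and -0.41 in CTR esophagi, a difference of -0.36 (SE 0.24). Lig1 (NM_010715, chromosome 7), the ligase, read 1.54, 1.34 and 1.50 in TG esophagi, against 1.52, 1.90 and 1.87 in CTR esophagi, a difference of -0.30 (SE 0.21). Both overlapped between genotypes.

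Uhrf1 (NM_010931, chromosome 17), the reader of half-methylated DNA, had the largest mean difference of the members in size. It read -1.01, -1.70 and -0.75 in TG esophagi, against -1.07, 0.97 and 0.21 in CTR esophagi. CTR1 lay among the TG values while CTR2 and CTR3 lay above them, and the difference was -1.19 (SE 0.69, 95% interval -2.71 to 0.34). Its second probe gave -1.20 (SE 0.62). Without esophagus CTR2 the difference was -0.72, and without CTR1 it was -1.74.

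**Figure D2:**
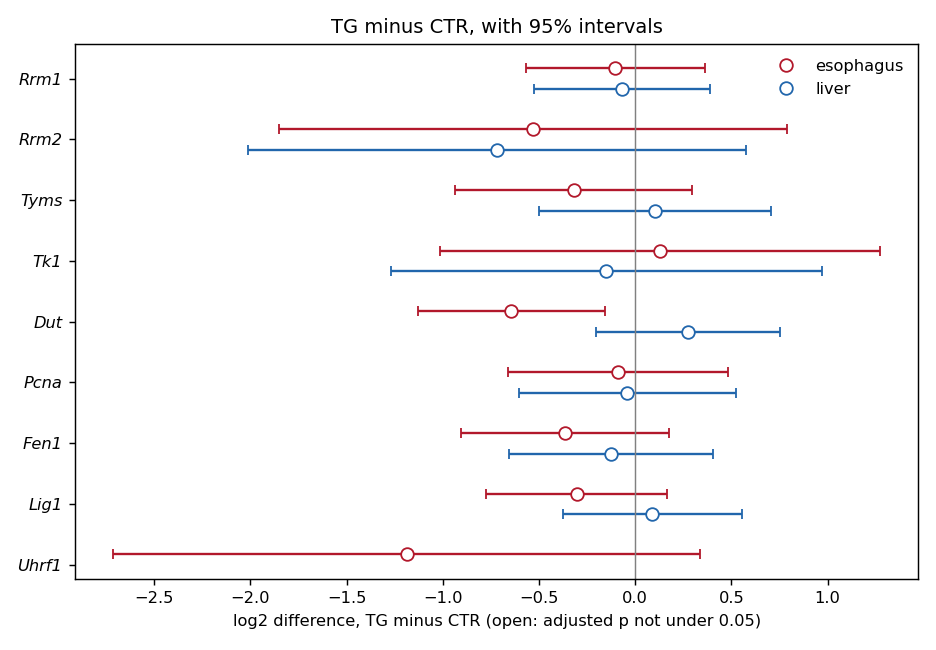
Difference between TG and CTR means (horizontal axis, log2) for each gene in esophagus and liver, as points with 95% intervals from limma; all points are open because none passed. The esophagus interval of Dut, -1.13 to -0.16, is the only one that leaves out 0, and Uhrf1 was not tested in liver.

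The members varied together from esophagus to esophagus, and most widely among the controls. Relative to the mean of the 3 control esophagi, the median of the 9 members stood at -0.22, -0.49 and -0.26 in TG1, TG2 and TG3, against -0.49, 0.46 and 0.08 in CTR1, CTR2 and CTR3. TG1 and TG3 lay inside the range of the controls, and TG2 matched the lowest control, CTR1, to the digits given. CTR2 was the highest of the 6 esophagi for 8 of the 9 members, with Rrm1 highest in CTR3, and TG2 was the lowest for 5. Across the 6 esophagi every one of the 36 pairs of members had a positive correlation, with a median r of 0.78 (0.33 to 0.99), given as a description since the genes share arrays and CTR2. The pair Dut and Uhrf1 stood highest at 0.99. Neither the counts of highest and lowest arrays nor the pairs were set against the same counts over all genes. Of the 9 markers of T cells and thymocytes matched to the array, the summed linear signal was 0.773 to 1.01 in TG esophagi, against 6.91 in CTR2 and 0.915 and 1.02 in the other 2 CTR esophagi. Dntt, the thymocyte polymerase that adds bases at receptor joints, stood at 2.06 in CTR2 and between -2.75 and -1.56 in the other 5, and Lck, a T cell kinase, at -0.18 against -4.20 to -2.76. Rag1, Cd3d and Themis were also highest in CTR2. Cd3e (-2.85 in CTR2, -3.25 to -1.71 in the other 5), Cd4 and Ptcra lay within the range of the other esophagi, and Rag2 was not detected well above background in any esophagus. In the 6 livers, where Rag1 was not well above background, Dntt stood at 1.73 to 2.97. The summed signal of the 9 markers was 5.71 to 9.22 in livers, a range that holds the CTR2 value. The part of these markers in the high members of CTR2 was not tested. Without esophagus CTR2 the median difference of the members was -0.16, and Pcna stood at 0.24 and Tk1 at 0.52, both higher in TG and neither passing. On the slide that held TG1 and CTR2 all 9 members were lower in TG1, with a median of -0.66, a value that rests on CTR2. In bulk RNA, fewer cells of a type and less RNA per cell cannot be told apart.

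**Figure D3:**
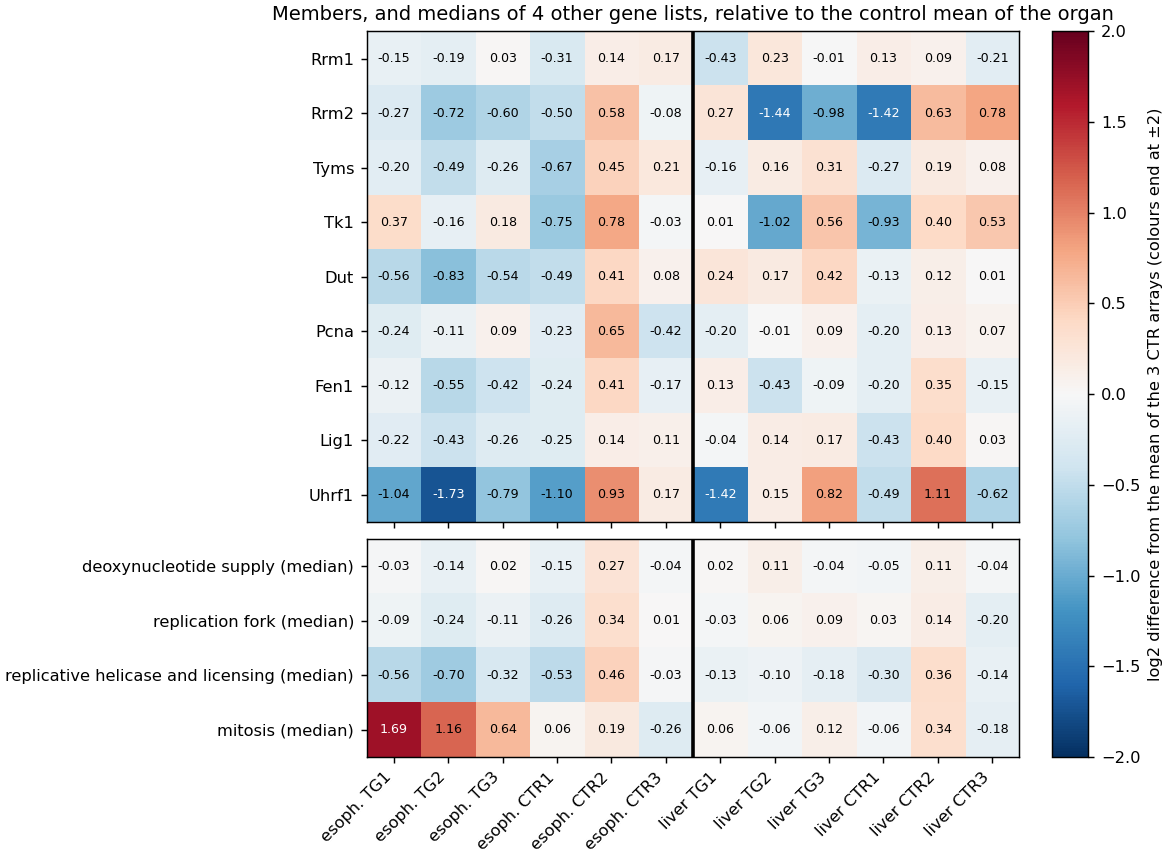
Log2 difference of each gene (upper block) and of the median of 4 other gene lists (lower block) from the mean of the 3 CTR arrays of the same organ, with TG arrays left of CTR arrays and the value printed in each cell. Esophagus CTR2 is above the control mean for all 9 genes, and the mitosis list stands at 1.69, 1.16 and 0.64 in TG1, TG2 and TG3 esophagus.

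Other genes of the same pathways did not pass between genotypes in the esophagus either, with 0 called in each of 4 further lists. Among 20 genes of deoxynucleotide supply, 8 were higher and 12 lower in TG, with a median of -0.05. Nme1, a nucleoside diphosphate kinase, differed by 0.48 (SE 0.25) and Cad, which starts pyrimidine synthesis, by -0.38 (SE 0.19). Of 38 other replication fork genes 25 were lower, with a median of -0.14. The nuclease and helicase Dna2 differed by -0.90 (SE 0.23), the fork factor Wdhd1 by -0.76 (SE 0.23) and Atad5, which unloads Pcna, by -0.71 (SE 0.22). Of 19 genes of the replicative helicase and its licensing 18 were lower, with a median of -0.53, and Mcm3, a helicase subunit, differed by -1.24 (SE 0.43). Mitosis genes lay on the other side, with 29 of 29 higher in TG, against 50.8% of all genes, a median of 1.18 and none called. The 4 lists were chosen with earlier results of these data known, and their genes share the same arrays, so these counts are descriptions.

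In the liver no member passed between genotypes and the differences had no common direction. Of 8 members tested, 3 were higher and 5 lower in TG, against 66.7% of all 21247 genes higher, with a median of -0.06 against 0.13 over all genes. The number called was 0 of 8, with a background of 0% of all genes, while 1763 genes (8.3%) had an unadjusted p under 0.05. The adjusted p of the members ran from 0.694 to 0.969.

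Among the genes of deoxynucleotide supply, Rrm2 and Tk1 varied most from liver to liver. Rrm2 read -0.39, -2.09 and -1.63 in TG livers, against -2.07, -0.02 and 0.13 in CTR livers. TG2, TG3 and CTR1 were low and the other 3 high, and the difference was -0.72 (SE 0.59). Tk1 read 1.72, 0.69 and 2.26 in TG livers, against 0.78, 2.10 and 2.24 in CTR livers, a difference of -0.15 (SE 0.51). TG2 and CTR1 were the lowest livers for Tk1 and for Rrm2 alike, and they were also the 2 livers with low Per2. Without both, an alternative chosen after seeing the data, Rrm2 differed by -1.07 and Tk1 by -0.18, and neither passed. Rrm1 read -0.02, 0.64 and 0.40 in TG livers, against 0.53, 0.50 and 0.19 in CTR livers, and across the 6 livers it ran against its partner Rrm2 (r = -0.63, a description over 6 arrays).

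Dut was the member that separated the genotypes in liver, in the opposite direction to the esophagus. It read 1.73, 1.67 and 1.92 in TG livers, against 1.37, 1.62 and 1.51 in CTR livers, so that even the lowest TG liver exceeded the highest CTR liver, as for 8.57% of all genes tested. The difference was 0.28 (SE 0.22, adjusted p = 0.694 in limma). Its second probe read 0.47, 0.55 and 0.63 in TG livers, against 0.16, 0.31 and 0.29 in CTR livers, also without overlap, and the difference was 0.29 (SE 0.22). Tyms read 1.64, 1.96 and 2.11 in TG livers, against 1.53, 1.99 and 1.88 in CTR livers, a difference of 0.10 (SE 0.27).

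The fork genes did not pass between TG and CTR livers. Pcna ranged from 2.81 to 3.10 in TG livers and from 2.81 to 3.13 in CTR livers, with a difference of -0.04 (SE 0.25, 95% interval -0.60 to 0.52). Fen1 read -1.24, -1.80 and -1.46 in TG livers, against -1.57, -1.02 and -1.52 in CTR livers, a difference of -0.13 (SE 0.24). Lig1 read 1.43, 1.61 and 1.64 in TG livers, against 1.04, 1.87 and 1.50 in CTR livers, a difference of 0.09 (SE 0.21). Uhrf1 read -5.29, -3.73 and -3.05 in TG livers, against -4.36, -2.76 and -4.49 in CTR livers. It was well above background on 2 of 3 arrays in each genotype and was therefore not tested in liver. Its second, dimmer probe read -4.16, -5.25 and -3.85 in TG livers, against -5.14, -3.88 and -3.14 in CTR livers, and was well above background on 2 of 3 TG and 3 of 3 CTR livers. With every probe tested on its own, an alternative chosen after seeing the data, it differed by -0.36 (SE 0.61, adjusted p = 0.859 in limma). Among the other pathway genes 0 were called in liver in each list, and Tk2, the thymidine kinase of mitochondria, differed by -0.41 (SE 0.15) and Shmt1, a folate enzyme, by -0.59 (SE 0.27).

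The TG effect was then compared between organs, as the esophagus difference minus the liver difference. The number called was 0 of 9, with a background of 0% of 24438 genes and 1188 (4.86%) at an unadjusted p under 0.05. Dut stood at -0.92 (SE 0.31, unadjusted p = 0.0141, adjusted p = 0.953), and the members' median was -0.24, against -0.14 over all genes.

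Between organs several members differed, as did most genes. In TG mice 6 of 9 members, Uhrf1 among them, passed between esophagus and liver, 3 higher and 3 lower, against 63.7% of all 23912 genes (23.5% higher and 40.3% lower in esophagus). In CTR mice 4 of 9 passed, 3 higher and 1 lower, against 62.7% of 23365 genes (26.7% higher and 35.9% lower). Uhrf1 entered these tests only through the esophagus, where it is high, and without it 5 of 8 members passed in TG and 3 of 8 in CTR mice. The members' share was thus near the background in TG mice and below it in CTR mice. The median of all genes lay at -0.41 in TG and -0.19 in CTR mice, and at -0.08 in TG and -0.04 in CTR mice with quantile normalization. The comparisons in TG and CTR mice used different arrays, but within a genotype organ and RNA extraction kit cannot be told apart.

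Uhrf1, Fen1 and Rrm1 were higher in the esophagus in both genotypes. Uhrf1 was higher by 2.87 in TG mice (7.32-fold, adjusted p = 0.00399) and by 3.91 in CTR mice (15.0-fold, adjusted p = 0.000563), from arrays at -1.70 to 0.97 in esophagi and -5.29 to -2.76 in livers. The probe was well above background on 2 of 3 livers in each genotype, so the folds rest in part on undetected signal. The size of the difference was 1.94 in TG and 2.82 in CTR mice with normexp background correction, and its second probe gave 2.42 in TG and 3.25 in CTR mice. Fen1 was higher by 0.89 in TG mice (1.85-fold, adjusted p = 0.00859) and by 1.13 in CTR mice (2.18-fold, adjusted p = 0.00214). Rrm1 was higher by 0.84 in TG mice (adjusted p = 0.00518) and by 0.88 in CTR mice (adjusted p = 0.00401). In each of the 6 mice the esophagus exceeded the liver for these 3 genes, by 0.45 to 1.26 for Rrm1, 0.79 to 1.19 for Fen1 and 2.03 to 4.70 for Uhrf1. All 3 esophagi lay above all 3 livers for 25.8% of all genes tested in TG mice and 30% in CTR mice. The share over all 6 mice was not taken.

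Tk1 was lower in the esophagus in both genotypes, and Tyms and Dut passed as lower in TG mice and did not pass in CTR mice. Tk1 was lower by a log2 value of -1.80 in TG mice (3.48-fold lower, adjusted p = 0.0109) and -2.08 in CTR mice (4.22-fold lower, adjusted p = 0.00499), and in each of the 6 mice. All 3 esophagi lay below all 3 livers for 45.7% of all genes tested in TG mice and 38.4% in CTR mice. Tyms differed by -1.0 in TG mice (adjusted p = 0.00926) and by -0.58 in CTR mice (adjusted p = 0.0928), lower in 6 of 6 mice. With every probe tested on its own, its second probe differed by -1.01 in TG mice (adjusted p = 0.00724) and by -0.68 in CTR mice, where it passed (adjusted p = 0.0468). Dut differed by -0.58 in TG mice (adjusted p = 0.0388) and by 0.34 in CTR mice (adjusted p = 0.201), and was higher in the esophagus in 2 of 6 mice. With quantile normalization the Dut difference in TG mice was -0.39 (adjusted p = 0.145), and that in CTR mice was 0.57 (adjusted p = 0.0407), so both calls depend on the scaling. The test of the difference between genotypes is the one given above, which did not pass for Tyms or Dut.

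Rrm2, Pcna and Lig1 did not pass between organs in either genotype with the scaling used throughout. Rrm2 differed by -0.81 (SE 0.60) in TG mice and by -1.0 (SE 0.60) in CTR mice and was lower in the esophagus in 6 of 6 mice. Leaving out livers TG2 and CTR1 was an alternative chosen after seeing the data. Rrm2 then stood at -1.17 in TG mice (limma adjusted p = 0.0367) and -1.71 in CTR mice (adjusted p = 0.00697). Livers TG2 and CTR1 held the lowest Rrm2 value of their groups. Leaving them out therefore had to widen the difference, and nothing is concluded from Rrm2 passing there. Pcna differed by -0.21 (95% interval -0.78 to 0.36) in TG mice and by -0.16 (-0.73 to 0.41) in CTR mice. With quantile normalization Pcna was at 0.16 in TG and 0.21 in CTR mice, so its direction depends on the scaling. Lig1 differed by -0.10 in TG mice and by 0.30 in CTR mice, and with quantile normalization by 0.10 in TG mice and by 0.52 in CTR mice, where it passed (adjusted p = 0.0438). The reductase subunits Rrm1 and Rrm2 therefore lay on opposite sides between organs, the first passing and the second not.

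**Figure D4:**
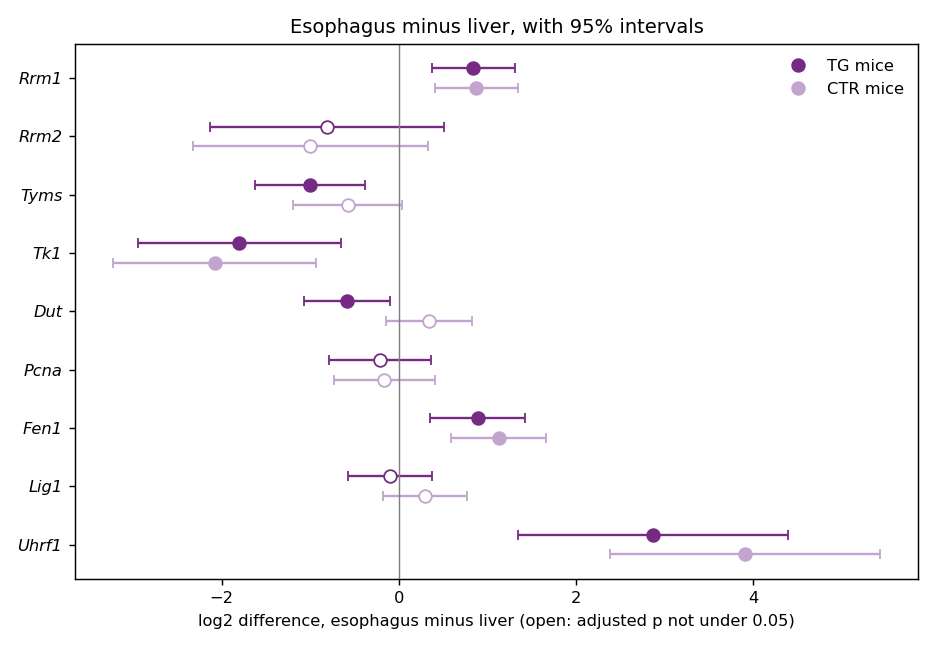
Difference between esophagus and liver (horizontal axis, log2, positive where the esophagus is higher) in TG and CTR mice with 95% intervals from limma, filled where the adjusted p was under 0.05. Uhrf1 stands at 2.87 and 3.91 and Tk1 at -1.80 and -2.08 in TG and CTR mice, and Dut lies below 0 in TG and above 0 in CTR mice.

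Taking the levels of each gene in order, Rrm1 and Fen1 ran CTR esophagus, TG esophagus, CTR liver and TG liver from high to low, and Uhrf1 ran in the same order. For Rrm1 and Fen1 the organs differed within each genotype. They did so for Uhrf1 too, which entered those tests only through the esophagus, where it is high. TG and CTR did not pass within the esophagus for any of these 3 genes, nor within the liver for Rrm1 and Fen1. Tk1 ran CTR liver, TG liver, TG esophagus and CTR esophagus, and Tyms TG liver, CTR liver, CTR esophagus and TG esophagus. Rrm2 and Pcna ran CTR liver, TG liver, CTR esophagus and TG esophagus, and Lig1 CTR esophagus, TG liver, CTR liver and TG esophagus, with no tested pair of neighbours passing. Dut ran CTR esophagus, TG liver, CTR liver and TG esophagus, where TG esophagus and TG liver passed and no other tested pair did.

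Further genes of the same pathways differed between organs in both directions. Of 20 genes of deoxynucleotide supply, 3 were higher and 12 lower in esophagus (15% and 60%), in TG and in CTR mice alike, against 23.5% higher and 40.3% lower of all genes in TG and 26.7% higher and 35.9% lower in CTR mice. Shmt1, the folate enzyme named above, was lower, at -4.01 in TG and -4.54 in CTR mice. Mthfd1, which links one-carbon units to folate, differed by -2.83 in TG and -3.29 in CTR mice. Of 38 fork genes 9 were higher and 9 lower in TG mice (23.7% each), and 13 higher (34.2%) and 7 lower (18.4%) in CTR mice, so that the share called lower was under that of all genes in both genotypes. Dnmt1, the methyltransferase that Uhrf1 recruits, was higher in esophagus by 1.50 in TG and 1.83 in CTR mice, and Dna2 was lower by -4.0 in TG and -3.01 in CTR mice. Of 19 genes of the helicase and its licensing, 4 were higher (21.1%) and 3 lower (15.8%) in TG mice, and 6 higher (31.6%) and 3 lower (15.8%) in CTR mice. Among them Mcm4, a helicase subunit, was higher by 1.02 in TG and 1.37 in CTR mice. Mcm10, a factor of helicase activation, was lower by -8.10 in TG and -7.56 in CTR mice. The Mcm10 probe averaged 5.57 in TG and 5.54 in CTR livers, against -2.53 in TG and -2.02 in CTR esophagi. Whether this probe reads Mcm10 alone in liver was not tested.

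Genes that varied most like the members across all 12 arrays were found by correlation with the median of 8 members tested in both organs, after centring each organ. Of 12203 candidates, Rheb, a small GTPase that activates mTOR, had the highest r, at 0.94. Brca1, a gene of DNA repair, followed at 0.89 and Szrd1 at 0.89. The lowest were Trim56 at -0.84 and Adamts5, a matrix protease, at -0.82. These are descriptions, with the candidates and the members on the same arrays and esophagus CTR2 far above the rest at 0.66.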

How the data were processed

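Per the file headers, Agilent Feature Extraction 10.7.1.1 made the deposited scanner files, whose spot intensity values on a linear scale had the background subtracted and were not scaled between arrays. A second table deposited by the authors holds log2 values, which the values show to be quantile-normalized (column medians near 7.27); limma is named in the submitters' processing notes. Per the labels' protocols, esophagus and liver RNA were extracted with different kits. Here control spots and 1311 outlier spots were left out, spots of a probe were averaged, and log2 signal minus the array's 75th percentile was taken. The brightest probe stood for a gene, tested where 1 or more groups had it well above background on 3 of 3 arrays. All 12 arrays entered a limma fit (limma 3.58.1, R 4.3.3) with 4 groups and 8 residual degrees of freedom; p-values were two-sided and adjusted over all genes by Benjamini-Hochberg. Of the probes, 23374 had a RefSeq gene, and 17800 others entered the tests under their own names. The normexp alternative used median spot and background signals (offset 50) in place of the mean spot signals planned. The fit was tested on simulated data.

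Members, 4 pathway lists and 14 marker lists were chosen with earlier results of these data known. Named genes were the members, Nanog and, per list and comparison, up to 4 with the smallest p (1 such gene is not reported here); Per2 and the T cell markers were chosen after their values were seen. Between TG and CTR samples of the same replicate number the r of deviations was -0.15 to 0.09, while animal numbers in the labels tie the organs of a mouse. Between the organs of a mouse the same r was -0.06 to 0.16, so the values do not show this tie. Since r missed a tie given by the labels, it cannot decide whether replicate numbers pair TG with CTR samples. Figures used Python 3.11.15, pandas 2.3.3 and matplotlib 3.10.9.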

Additional observations from a re-analysis of the deposited data

Results flagged for a closer look

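The Dut difference between TG and CTR had opposite signs in the organs and passed in neither. Relative to the control mean, all 3 TG esophagi were lower, between -0.83 and -0.54, and all 3 TG livers higher, between 0.17 and 0.42. The difference of the TG effects, esophagus minus liver, was -0.92 (limma unadjusted p = 0.0141, adjusted p = 0.953), so it did not pass. The second Dut probe gave -0.73 (SE 0.31), and its TG and CTR values overlapped in esophagus. The median TG difference of all genes in liver was itself 0.13. How many of all genes have such opposite signs was not counted. Over 27 alternatives the difference kept its direction, between -1.21 and -0.72, and passed in none.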

How the results depend on the processing

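No member passed between genotypes, or for the difference between organs, under any alternative, and the median of the members in esophagus ran from -0.36 to -0.30 with other processing and from -0.49 to -0.16 when an array was left out; it was -0.61 without esophagi TG1 and CTR1 and -0.16 without both arrays of mouse CTR2. Counts of genes called over the whole table moved as follows. In esophagus, where the count was 0, it was 1 with quantile normalization (12 arrays or within organ), with slide as a fixed block, with array weights, with each organ alone and without both arrays of mouse CTR2, and 2 with normexp, with the authors' table and without esophagi TG1 and CTR1, and leaving out single arrays gave 0 to 7. In liver it was 1 without both arrays of mouse CTR2 and 30 without livers TG2 and CTR1, an alternative chosen after seeing the data, and leaving out single arrays gave 0 to 18. The most, 7 and 18, came without esophagus TG2 and without liver TG2. For the difference it was 1 with quantile normalization, normexp, the authors' table and without both arrays of mouse CTR2, and leaving out single arrays gave 0 to 1. The cause was not tested. With the replicate block the members' median was -0.32 in esophagus and 0 genes were called; the block changed no call of a member. Between organs Rrm1, Tk1, Fen1 and Uhrf1 passed in both genotypes, and Tyms in TG mice, under every alternative that tested them (a stricter filter on dim probes left Uhrf1 untested); Dut in TG mice passed in 13 of 27 (adjusted p from 0.0131 to 0.212). Of calls between organs in TG mice 63.2% were lower in esophagus, against 51.6% with quantile normalization. With the filter used, Uhrf1 entered the tests between organs only through the esophagus, and its dim signal in liver limits the size of its difference.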
